A study of Mus musculus with 2 samples.

Results

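The genes of phospholipid and sphingolipid metabolism were compared between the livers of 1 pool of wild-type (WT) mice and 1 pool of CREBH-Tg mice. The set holds 46 genes, picked by name for their roles in these pathways and grouped into lipid classes, out of 20660 genes named on the arrays. Both groups had the C57B6J background and the HFHS diet for 12 weeks. CREBH-Tg mice express, chiefly in liver, a human cDNA that encodes active CREBH, a transcription factor of the CREB/ATF group. The driving promoter, the number of mice in each pool, their age and their sex are not given in the sources used here. Each pool was read on 1 one-colour Agilent array, so there are no replicates and no test between genotypes. Differences are described by their size, and in whole liver a change in a cell type's number cannot be told apart from a change in its RNA per cell.

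Phosphatidylcholine and phosphatidylethanolamine are the main phospholipids of cell membranes, and the liver also needs phosphatidylcholine for lipoproteins and bile. Hepatocytes make it from choline through the CDP-choline branch of the Kennedy pathway, or by methylating phosphatidylethanolamine. Acyl chains are then exchanged in the Lands cycle. Ether lipids and plasmalogens are begun in peroxisomes. Sphingolipids start from serine and palmitoyl-CoA, pass through ceramide, and are built into sphingomyelin and glycosphingolipids or broken down to sphingosine 1-phosphate.

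Signals are given as log2 intensity relative to the 75th percentile of the array, so a log2 ratio of 1 between arrays is a 2-fold difference. Probes differ in how strongly they bind, so a level is compared between the arrays and not between genes. Of the 46 genes, 40 gave a signal well above background in both pools, 1 in CREBH-Tg alone and 4 in neither. Far1, which reduces fatty acyl-CoA for ether lipids, had no named probe. The only error available is spot noise, from probes spotted at least 5 times. Its 95% range for a single spot was 0.40, 0.17 and 0.095 on the log2 scale in the dimmest, middle and brightest of 3 equal classes of genes by signal. That range leaves out the spread between mice, pools, labelling reactions and hybridisations. On these arrays 55.4% of spots were well above background for WT and 58.3% for CREBH-Tg, and none was saturated. The mouse Creb3l3 probe read 6.97 on both arrays, but the transgene is human cDNA, so this does not check the genotype.

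Most of the set lay near equality between the pools, and Tmem86a and Smpd3 stood apart. The 40 measured genes had a median log2 ratio of 0.099, against 0.026 over all 13881 genes measured on both arrays. Of the 40, 28 (70.0%) lay above 0, where 56.0% of all genes did. In CREBH-Tg 2 genes were at least 2-fold higher, Tmem86a and Smpd3, which is 5.0% of the 40 against a background of 0.663%, and none was 2-fold lower (background 0.670%). The same 2 genes were the only ones at least 1.5-fold higher (background 2.31%), and none was 1.5-fold lower (background 2.23%). At 1.2-fold, 7 genes (17.5%) were higher against 11.0% of all genes, and none was lower against 9.98%. When arrays were scaled to their medians, those counts were 13 and 0, against 19.7% and 6.08% of all genes.

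By signal, 21 of the 40 genes fell in the brightest class, 13 in the middle and 6 in the dimmest. The median log2 ratio in the brightest class was 0.067 for the set and 0.050 for all genes. In the middle class it was 0.17 against 0.0098, and in the dimmest 0.23 against -0.0038. More than the spot range higher were 17 of the 40 (42.5%), against 20.8% of all genes, and more than it lower were 4 (10.0%), against 13.3%. The remaining 19 genes of the 40 were within the range, which is that of a single spot even for Kdsr, where 9 spots were averaged. These counts move with the scaling: in the authors' table they were 9 and 7 (22.5% and 17.5%, against 12.8% and 20.7% of all genes), and with arrays scaled to their medians 27 and 1 (67.5% and 2.5%, against 37.3% and 7.25%). By class, the share higher by more than the range was 42.9% of 21 genes in the brightest class, against 35.8% of all genes there. It was 53.8% of 13 in the middle class, against 16.7%, and 16.7% of 6 in the dimmest, against 9.77%.

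**Figure D1:**
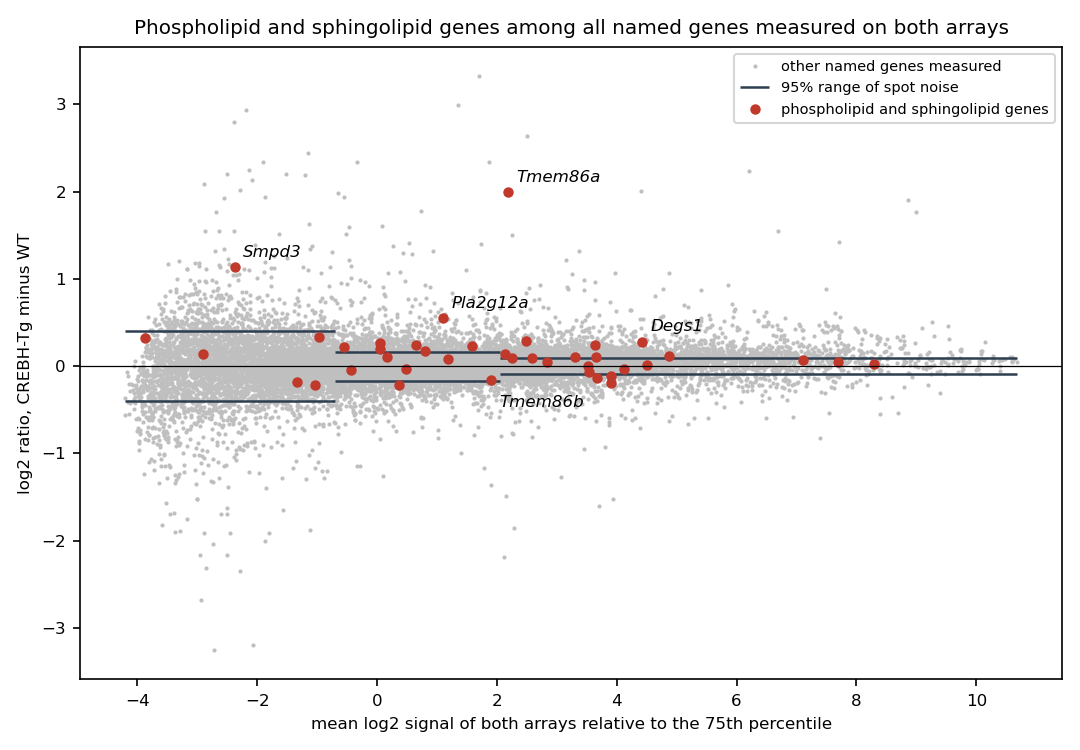
Log2 ratio (CREBH-Tg minus WT) against the mean log2 signal of both arrays for all named genes measured, in grey, and the 40 phospholipid and sphingolipid genes, in red. Horizontal lines give the 95% range of spot noise in each signal class; Tmem86a (1.995) and Smpd3 (1.13) lie far outside it, and most red points lie near 0.

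Tmem86a encodes a lysoplasmalogenase, which splits the vinyl ether bond of plasmalogens that have lost an acyl chain. Its probe read 1.18 in WT and 3.18 in CREBH-Tg liver, or processed intensities of 755 and 2792. This is a log2 ratio of 1.995, or 3.99-fold higher in the CREBH-Tg pool, beside a spot range of 0.095. Over all genes measured, 18 had a higher log2 ratio, and of the 4627 in the brightest class only 3 did. Classes go by the mean signal of both arrays, and Tmem86a reached the brightest class through its CREBH-Tg signal. Its WT signal alone lay in the middle class, where the spot range was 0.17. The log2 ratio ran from 1.87 to 2.08 over the processing settings tried. It rests on 1 probe with 1 spot.

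The paralog Tmem86b, an enzyme of the same activity, lay on the other side of 0. It read 1.98 in WT and 1.82 in CREBH-Tg liver, a log2 ratio of -0.16, just inside its spot range of 0.17. The promoter windows of both lysoplasmalogenase genes are printed here, because one of the pair differed by 3.99-fold and the other by little, with that of Pla2g12a, a secreted phospholipase A2 whose log2 ratio was the next in size after Smpd3. They are RefSeq windows on GRCm38.p6, from 250 bases before to 50 after the transcription start. Capitals mark TGACG or its reverse complement CGTCA, the half-site of the cyclic AMP response element that factors of the CREB/ATF group bind. Tmem86a lies at chr7:47050390-47050689 on the plus strand, Tmem86b at chr7:4630433-4630732 on the minus strand, and Pla2g12a at chr3:129880934-129881233 on the plus strand.
Tmem86a: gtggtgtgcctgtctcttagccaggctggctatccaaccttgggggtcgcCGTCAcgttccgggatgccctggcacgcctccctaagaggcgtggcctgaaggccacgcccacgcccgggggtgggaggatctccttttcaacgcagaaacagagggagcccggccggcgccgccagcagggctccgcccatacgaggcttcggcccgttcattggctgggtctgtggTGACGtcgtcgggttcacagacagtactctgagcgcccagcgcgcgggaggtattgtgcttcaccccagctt
Tmem86b: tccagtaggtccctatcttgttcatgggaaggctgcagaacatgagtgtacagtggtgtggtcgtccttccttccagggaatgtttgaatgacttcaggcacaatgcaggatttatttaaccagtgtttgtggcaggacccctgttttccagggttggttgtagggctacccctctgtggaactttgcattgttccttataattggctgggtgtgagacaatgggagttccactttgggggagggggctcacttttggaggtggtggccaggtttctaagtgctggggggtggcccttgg
Pla2g12a: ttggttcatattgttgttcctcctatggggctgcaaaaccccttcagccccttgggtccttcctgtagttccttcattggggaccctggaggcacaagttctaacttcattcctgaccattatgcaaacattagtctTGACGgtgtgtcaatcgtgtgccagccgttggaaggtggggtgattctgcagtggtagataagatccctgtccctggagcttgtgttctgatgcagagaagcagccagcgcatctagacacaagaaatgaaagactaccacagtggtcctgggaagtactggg

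The Tmem86a window held the half-site in 2 places, starting 200 and 22 bases before the transcription start. The nearer one extended to TGACGT. The Pla2g12a window held 1 half-site, 113 bases before the start, and the Tmem86b window held none of the motifs searched. On either strand TGACG was found in 20.8% of all 32851 windows, TGACGT, which contains it, in 7.51%, and the palindrome TGACGTCA, which contains both, in 1.79%. The windows of 42 of the 46 genes were in the table, 64 in all, and 31.2% of them held TGACG, 10.9% TGACGT and 3.12% TGACGTCA. CCACG was found in 54.7% of these 64 windows and 32.8% of all, and the palindrome CACGTG in 12.5% and 7.15%. These windows were also richer in CpG, which each of these motifs contains, with a median of 22 CpG against 7 over all windows. The Tmem86a window held 25 CpG, that of Pla2g12a 4 and that of Tmem86b only 1, so the lack of a motif in the Tmem86b window says little. Smpd3, Pcyt2, Ptdss1 and Asah1 had no window, so no motif was searched for in them. The genes with TGACGT in a window were Chkb, Lpcat1, Cds1, Crls1, Pla2g6, Tmem86a and Sphk2. Their log2 ratios ran from 0.051 for Chkb to 1.995 for Tmem86a, and Lpcat1 and Cds1 had none.

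The genes beside Tmem86a on the chromosome were close to equal or not measured. In a check chosen after the values were seen, the nearest protein-coding genes before it, Spty2d1 and Uevld, had log2 ratios of 0.018 and -0.10. On its other side Ptpn5 was not well above background on either array. Around Smpd3, log2 ratios were -0.040 for Prmt7 and 0.078 for Zfp90, and around Pla2g12a they were 0.090 for Cfi and 0.14 for Casp6.

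The remaining ether lipid genes were level or lower. Gnpat, which adds the first acyl chain in peroxisomes, read 3.52 on both arrays. Agps, which swaps that chain for a fatty alcohol, read 0.48 in WT and 0.26 in CREBH-Tg, a log2 ratio of -0.22 that exceeds its spot range of 0.17. The median of the 4 measured genes of the class was -0.081, with Tmem86a alone above 0. Among partners outside the set, Peds1 (named Tmem189 in the reference), the desaturase that forms the vinyl ether bond, read -0.30 in WT and 0.35 in CREBH-Tg. That is 1.57-fold higher, and its 2 probes gave log2 ratios of 0.35 and 0.65. The peroxisomal import receptor Pex7 had a log2 ratio of 0.046, and Agmo, which cleaves alkylglycerols, 0.031. Pafah2, a hydrolase of platelet activating factor, was 1.21-fold lower.

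**Figure D2:**
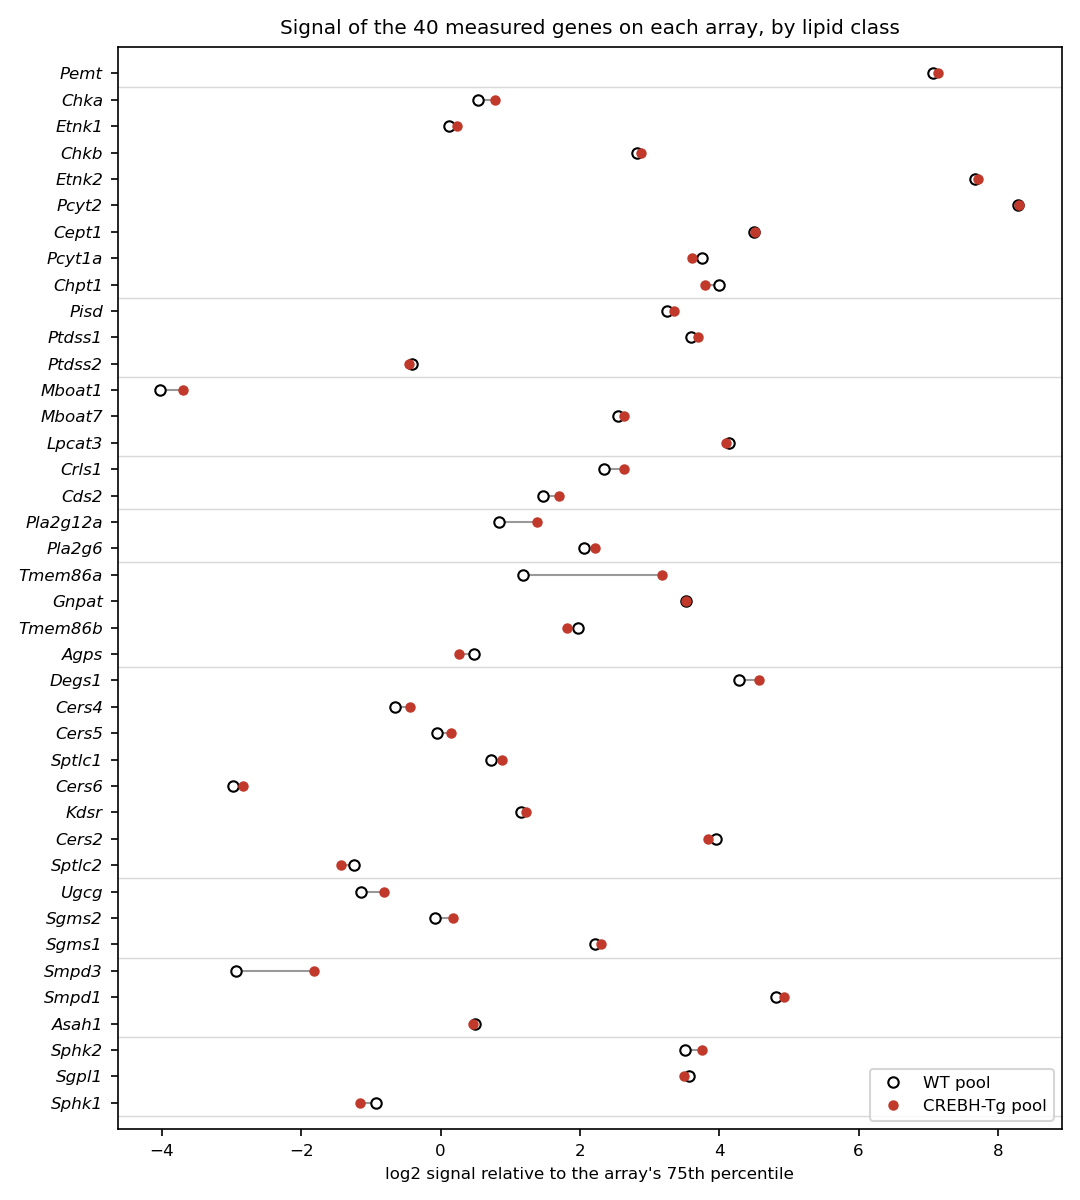
Log2 signal relative to the 75th percentile of each array for the 40 measured genes, in WT (open circles) and CREBH-Tg liver (red circles), 1 array each, grouped by lipid class with lines between classes. The circles of most genes nearly coincide, those of Tmem86a lie at 1.18 and 3.18, and positions of different genes are not comparable because probes differ.

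In the phospholipase A2 class, which frees the acyl chain at the middle carbon of glycerophospholipids, both genes were higher. Of all genes, 56.0% lay above 0. Pla2g12a read 0.83 in WT and 1.38 in CREBH-Tg, a log2 ratio of 0.55 or 1.46-fold, against a spot range of 0.17. It stayed between 0.45 and 0.64 over the settings tried. Pla2g6, a calcium-independent enzyme, read 2.06 and 2.21, a log2 ratio of 0.14 beside a range of 0.095. In the authors' table it was 0.084, within that range. Among relatives outside the set, Pla2g12b was at 0.085, the cytosolic Pla2g4a at 0.10 and the lysosomal Pla2g15 at -0.023. Pla2g4b was at -0.13, beyond its spot range of 0.095, and Pla2g5 passed background in CREBH-Tg alone.

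For synthesis of phosphatidylcholine the signals were close on both arrays. Pemt, the methyltransferase that turns phosphatidylethanolamine into phosphatidylcholine, read 7.07 in WT and 7.14 in CREBH-Tg, within its spot range. Its 3 probes gave log2 ratios of 0.067 to 0.13. The 8 Kennedy pathway genes had a median of 0.034. By the brightest probe none was 1.2-fold apart, where 11.0% of all genes were higher and 9.98% lower. Chka, a choline kinase of the first step, read 0.54 and 0.78. Its log2 ratio was 0.25, beyond its spot range of 0.17, and ran from 0.18 to 0.34 over the settings tried. Its other 2 probes gave 0.34 and 0.39, which are more than 1.2-fold.

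Of the later steps of the choline branch, Pcyt1a and Chpt1 were lower and Cept1 was level. Pcyt1a, the rate-limiting enzyme that makes CDP-choline, read 3.75 in WT and 3.61 in CREBH-Tg, a log2 ratio of -0.14. Chpt1, the cholinephosphotransferase of the last step, read 3.996 and 3.80, a log2 ratio of -0.20, and its second probe gave -0.25. Both lay beyond the spot range of 0.095, and 15.5% of all genes in the brightest class were lower by more than it. Pcyt1a and Chpt1 were below 0 in every setting tried, though Pcyt1a, at -0.050, was within the range when arrays were scaled to their medians. Chkb, the other choline kinase, had a log2 ratio of 0.051, and Cept1, which serves both branches, 0.014.

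The ethanolamine branch showed smaller differences. Pcyt2, which makes CDP-ethanolamine, read 8.28 and 8.30, and its log2 ratio of 0.019 was -0.095 under quantile normalization. The ethanolamine kinases Etnk1 and Etnk2 had log2 ratios of 0.11 and 0.049, both within the spot range, and the second probe of Etnk2 gave -0.046. Selenoi, the ethanolaminephosphotransferase outside the set, was at 0.029. The lipins, phosphatases that make the diacylglycerol for both branches, were all below 0, as were 44.0% of all genes. Lpin1 was at -0.19, with a second probe at -0.071, Lpin2 at -0.17 and Lpin3 at -0.31. In the list of choline and methyl supply, Bhmt, which passes a methyl group from betaine to homocysteine, was 1.24-fold lower, and its 3 probes ran from -0.59 to -0.31. Gnmt and Mat1a, of the methionine cycle, were at 0.012 and -0.046.

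Phosphatidylserine genes and the Lands cycle differed little. Ptdss1, which makes phosphatidylserine from phosphatidylcholine, had a log2 ratio of 0.10, with its 3 probes between 0.10 and 0.12. Pisd, which decarboxylates phosphatidylserine in mitochondria, was at 0.10 too, and both just passed the spot range of 0.095. Ptdss2, which uses phosphatidylethanolamine, was at -0.047. Of the 7 Lands cycle acyltransferases only 3 were measured on both arrays. Lpcat3, which puts polyunsaturated chains into phosphatidylcholine and is known as the main such enzyme of liver, read 4.14 and 4.10, within spot noise. Mboat7, which acts on phosphatidylinositol, was at 0.097. Mboat1 was at 0.32 but dim, reading -4.02 and -3.70, with a spot range of 0.40.

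The other 4 acyltransferases gave no ratio. Lpcat1 passed background in CREBH-Tg alone, at -4.15, which is not above the lowest such signal of the WT array (-4.13), so no bound can be set. Lpcat2, Lpcat4, Mboat2 and Cds1 were not well above background in either pool.

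Cardiolipin is the phospholipid of the inner mitochondrial membrane. Both measured genes of its class in the set, which includes CDP-diacylglycerol synthesis, were above 0, as were 56.0% of all genes. Cds2, which makes CDP-diacylglycerol, read 1.46 in WT and 1.70 in CREBH-Tg, a log2 ratio of 0.23. Crls1, cardiolipin synthase, read 2.34 and 2.64, a log2 ratio of 0.29 or 1.23-fold. Each exceeded its spot range, where 20.8% of all genes were higher by more than theirs. From the list outside the set, Tamm41, which makes CDP-diacylglycerol in mitochondria, was at 0.069. Of the enzymes between CDP-diacylglycerol and cardiolipin synthase, Pgs1 was at -0.12, beyond its spot range of 0.095, and Ptpmt1 was at 0.038. The remodelling acyltransferase Lclat1 was 1.21-fold lower, and tafazzin was at 0.020.

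**Figure D3:**
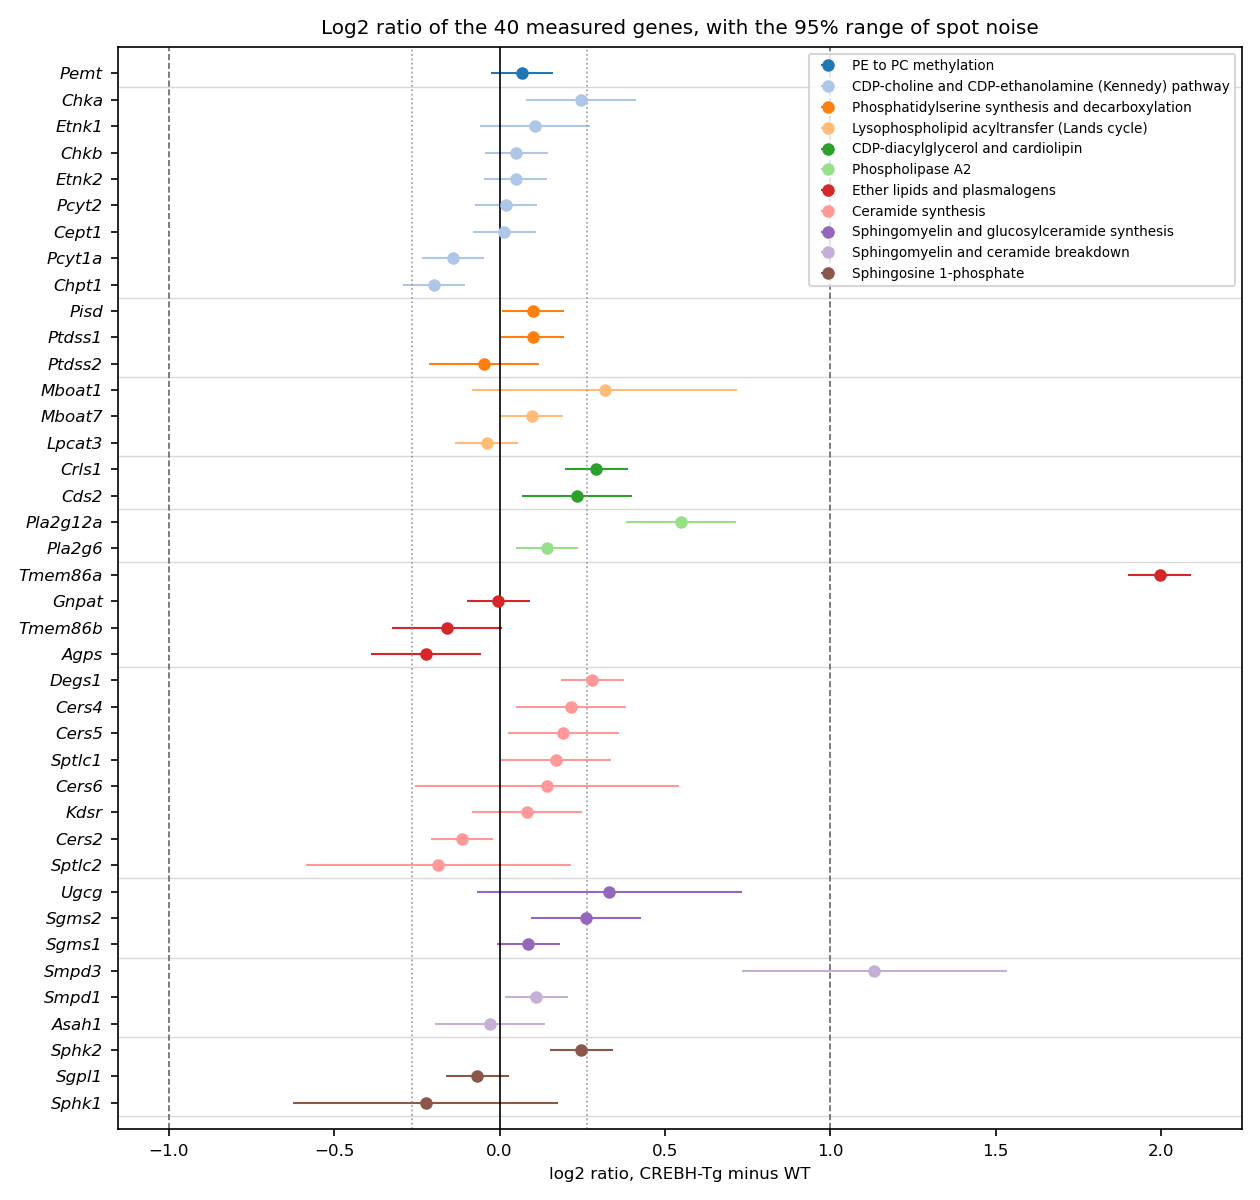
Log2 ratio of each measured gene, coloured and grouped by lipid class, 1 array per genotype. Bars give the 95% range of single-spot noise for genes of that signal, dashed lines 2-fold and dotted lines 1.2-fold; Tmem86a (1.995), Smpd3 (1.13) and Pla2g12a (0.55) stand to the right, and no gene passes the dotted line to the left.

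In ceramide synthesis the median log2 ratio was 0.16. Of the 8 genes 6 were above 0, beside 56.0% of all genes, and none was 1.2-fold lower, beside 9.98%. Degs1, the desaturase that makes ceramide from dihydroceramide in the last step, read 4.28 in WT and 4.56 in CREBH-Tg. Its log2 ratio of 0.28, or 1.21-fold, was the highest of the class and exceeded its spot range of 0.095. The subunits of serine palmitoyltransferase, which starts the pathway, lay on opposite sides of 0. Sptlc1 was at 0.17, barely beyond its spot range of 0.17, and Sptlc2 at -0.19, within its own of 0.40, with -0.16 on a second probe. Kdsr, the reductase of the next step, was spotted 9 times and gave 0.082 ± 0.054 (SD over 9 spots of 1 array pair).

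The ceramide synthases, which differ in the chain length they attach, lay on both sides of 0. Cers2, which uses very long chains and is known as the main form in liver, read 3.95 and 3.84, a log2 ratio of -0.11 that exceeds its spot range. Cers4 was at 0.22 and Cers5, which uses palmitoyl-CoA, at 0.19, both beyond the range of 0.17. In the authors' table they were at 0.16 and 0.13, within it. Cers6, which also uses palmitoyl-CoA, was at 0.14 and dim. Cers2 was below 0 and the other 3 above 0 in every setting that measured them. When arrays were scaled to their medians, Cers2 was at -0.023, within its range. Of all genes, 20.8% were higher and 13.3% lower by more than their spot range. Of the proteins that bind and restrain serine palmitoyltransferase, Ormdl1 was at -0.069, Ormdl2 at 0.14 and Ormdl3 at -0.12, and the small subunit Sptssa was at 0.087. Sptlc3 was not well above background.

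The 3 enzymes that build sphingomyelin and glucosylceramide from ceramide were above 0, where 56.0% of all genes were, at a median of 0.26. Ugcg, which makes glucosylceramide, read -1.14 in WT and -0.81 in CREBH-Tg, a log2 ratio of 0.33, but was dim and within its spot range of 0.40. The sphingomyelin synthases Sgms2 and Sgms1 were at 0.26, beyond a range of 0.17, and at 0.087, within one of 0.095. Cert1, which carries ceramide to the Golgi, was at 0.074. Further along the glycosphingolipid route the dim B4galt6 was at -0.48, but at 0.010 under normexp background correction, while B4galt5 was at 0.19 with a second probe at -0.19, and St3gal5 at -0.021.

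Among enzymes of sphingomyelin and ceramide breakdown, the neutral sphingomyelinase Smpd3 stood out. It read -2.94 in WT and -1.81 in CREBH-Tg, or processed intensities of 43.3 and 88.0. This is 2.19-fold higher, a log2 ratio of 1.13 against a spot range of 0.40, from 1 probe in the dimmest class. Under normexp background correction of the median spot signal, with an offset of 50, the log2 ratio was 0.52. Smpd1, the acid sphingomyelinase of lysosomes, read 4.81 and 4.92, a log2 ratio of 0.11. Asah1, acid ceramidase, was at -0.028, with its second probe at 0.24. Other sphingomyelinases outside the set were within their spot ranges, at -0.13 for Smpd2, -0.076 for Smpd4 and 0.030 for the related Smpdl3a.

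The sphingosine 1-phosphate genes lay on both sides of 0. Sphk2, a sphingosine kinase, read 3.51 in WT and 3.76 in CREBH-Tg, a log2 ratio of 0.25 beyond the spot range of 0.095. Sphk1, the other kinase, was dim at -0.93 and -1.15. Its log2 ratio of -0.22 was within the spot range, and its second probe gave 0.17. Sgpl1, the lyase that ends the pathway, was at -0.067. Among partners outside the set, Apom, the apolipoprotein that carries sphingosine 1-phosphate in plasma, read 6.44 and 6.92, 1.39-fold higher. Of its receptors, S1pr1 was at 0.047, S1pr2 at 0.077, S1pr3 at -0.28 and S1pr5 at -0.22, and S1pr4 was not well above background.

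**Figure D4:**
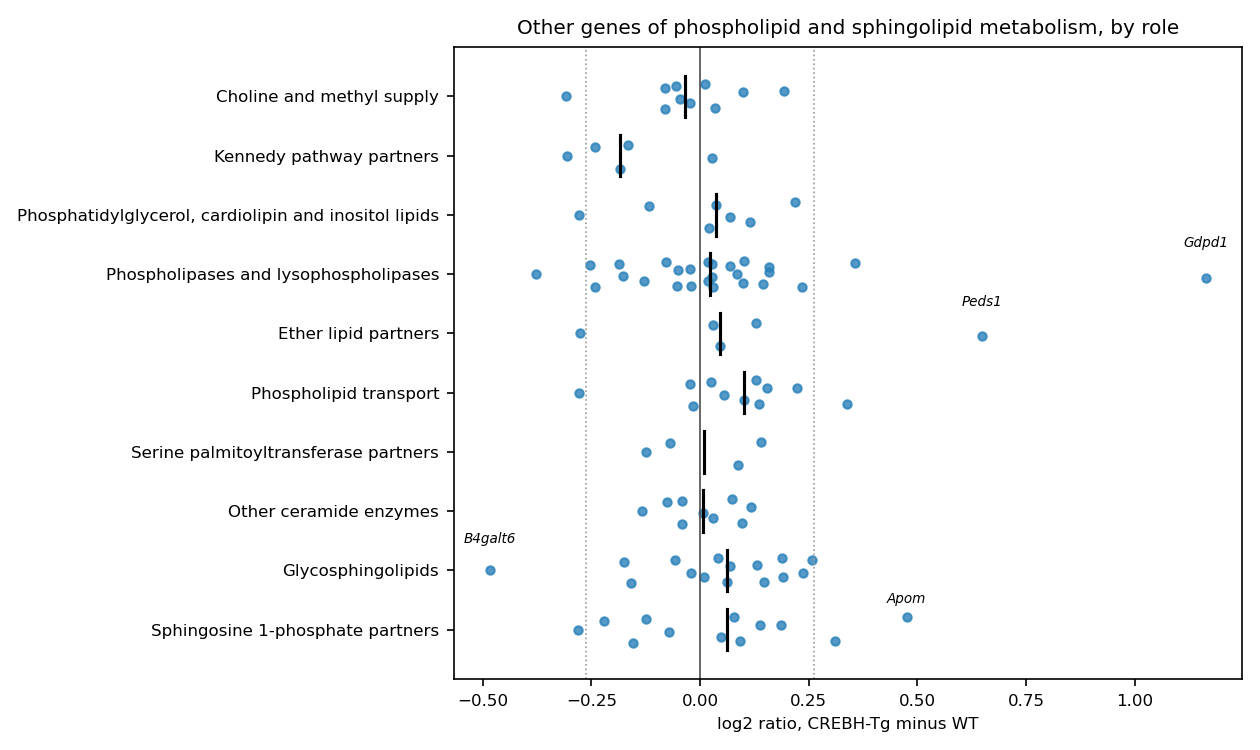
Log2 ratio of the 104 measured genes of phospholipid and sphingolipid metabolism outside the set, 1 point per gene by role, with black bars at medians and dotted lines at 1.2-fold; vertical scatter within a row only separates points. Gdpd1 (1.16) and Peds1 (0.65) are farthest to the right, and most rows centre near 0.

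A wider list of 124 other genes of these pathways, of which 104 were measured on both arrays, had a median log2 ratio of 0.028. In it 6 genes (5.77%) were at least 1.2-fold higher and 8 (7.69%) lower, beside the backgrounds of 11.0% and 9.98%. With scaling to the median the counts were 15 and 2 of the 104, against 19.7% and 6.08% of all genes. More than the spot range higher were 23 of the 104 (22.1%), against 20.8% of all genes, and more than it lower were 21 (20.2%), against 13.3%. Gdpd1, a phosphodiesterase of lysophospholipids, was farthest from 0 at 2.24-fold higher, but dim, reading -3.05 and -1.88, and at a log2 ratio of 0.46 under normexp. Among transporters, Mfsd2a, which takes up lysophosphatidylcholine, was 1.26-fold higher and Abcb4, which exports phosphatidylcholine into bile, was at 0.22. Abca1, which loads phospholipid onto apolipoprotein A-I, was 1.21-fold lower. Pnpla7, a lysophospholipase, was 1.28-fold higher, and Enpp2, the autotaxin that makes lysophosphatidic acid, had a log2 ratio of -0.38.

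Markers of the tissue and of other cell types were read beside these values. Of 10 hepatocyte markers 9 were measured, with a median log2 ratio of 0.076 and a summed scaled intensity of 4535 in WT and 5022 in CREBH-Tg. Of 6 adipocyte markers 4 were measured on both arrays, with sums of 5.26 and 5.64 and log2 ratios from -1.88 for Cidea to 2.20 for Adipoq. Plin1 and Lep were well above background in CREBH-Tg only. Among macrophage markers 12 of 14 were measured on both arrays, with a median of -0.0075 and sums of 198 and 184. Marco was at -0.96 and Trem2 at 1.13, and Gpnmb was well above background in CREBH-Tg only. The 10 stellate cell markers summed to 76.9 and 80.9, with a median of 0.21. Of 10 lymphocyte markers 9 were measured, with 7 above 0, a median of 0.14 and log2 ratios from -0.11 for Gzma to 1.099 for Cd3d. Their sums were 104 and 129, and the brightest of them, Cd4, read 6.49 and 6.83. Such sums add signals of different probes and are led by the brightest. The 8 endothelial markers summed to 106 and 116, and 5 of 6 cholangiocyte markers to 2.19 and 1.73. The part of such cells in the differences of Tmem86a, Smpd3 and the other genes was not tested.

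**Figure D5:**
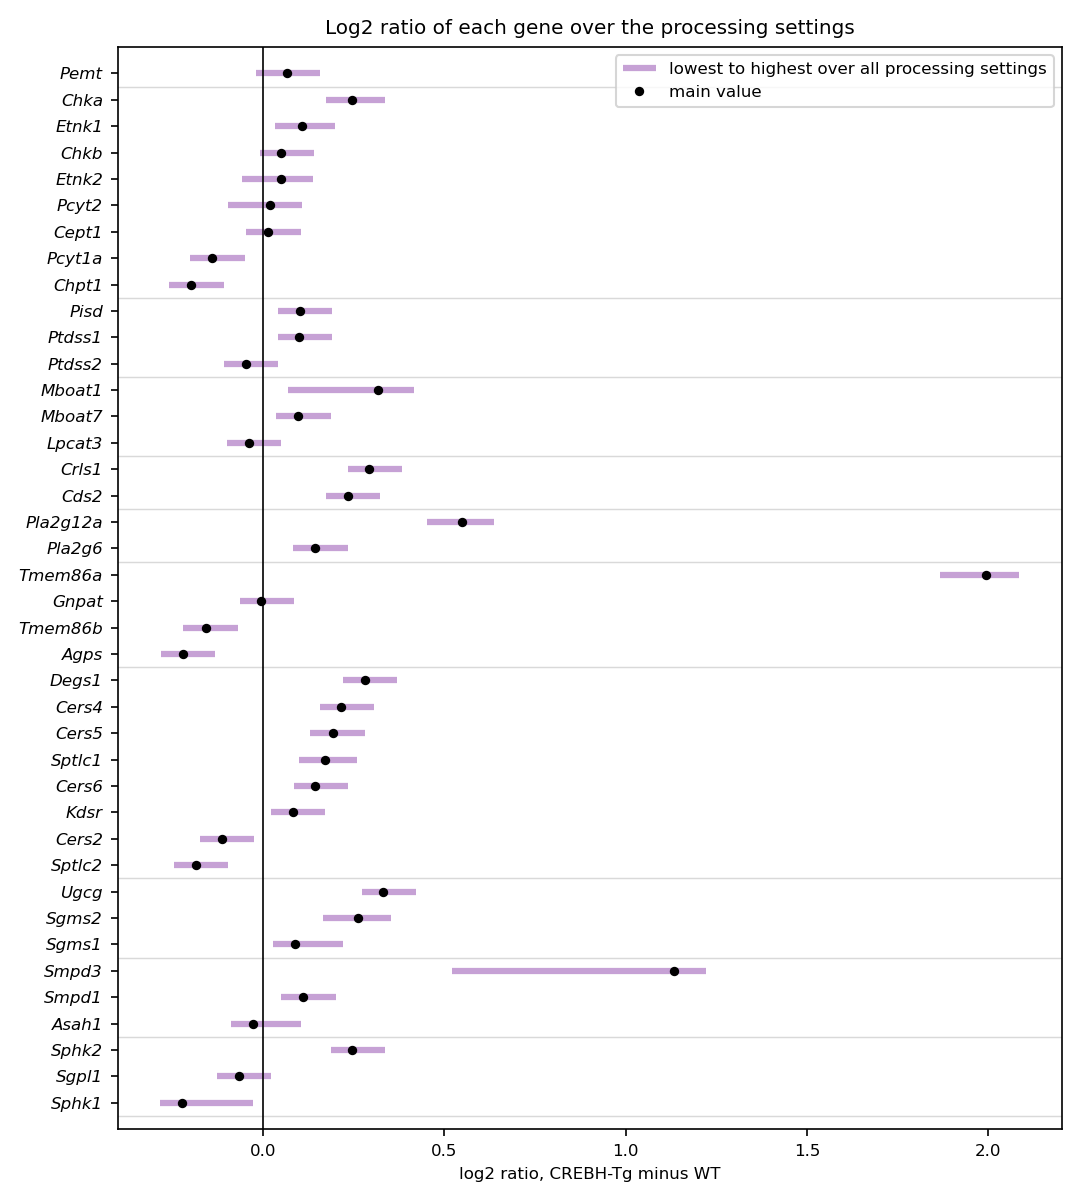
Log2 ratio of each measured gene over the processing settings tried: black points give the main value and purple bars the lowest to the highest value. The bars of Tmem86a (1.87 to 2.08) and Pla2g12a (0.45 to 0.64) stay to the right of 0, and that of Smpd3 reaches down to 0.52.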

How the data were processed

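Liver RNA of 1 WT and 1 CREBH-Tg pool was read on 1 array each; groups came from the labels. Per the labels' protocols, RNA was extracted with Trizol and labelled with Cy3. Spot signals come from Agilent Feature Extraction 10.10.1.1 with mm9 probe annotation, per the file headers. The deposited processed signal is a linear intensity, background-subtracted within each array. The authors' value table also holds intensity and equalled it times 1 constant per array (2.59 for WT, 2.68 for CREBH-Tg), by a rule not given in the sources used here.

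From the processed signal, log2 was taken and the 75th percentile over non-control spots of each array subtracted (intensities 333 and 309). The 300 outlier spots were left out and spots of 1 probe averaged. A probe counted as measured with over 50% of its spots well above background, and a gene took its brightest probe measured on both arrays. The transcript accessions were matched to RefSeq names of GRCm38.p6, naming 27233 of 55677 probes. The spot range is 1.96 SD of the log2 ratio of 1 spot, from 276 repeatedly spotted probes in 3 signal classes. The steps were tested on simulated data. All 46 genes are accounted for; of the wider list, genes 1.5-fold apart, S1P receptors and partners of described genes were to be named, and the others named from it were chosen after their values were seen. The genes and lists were chosen with earlier results of these data known. Motifs and neighbouring genes were chosen after the values were seen. Alternatives covered scaling, background correction (normexp on the median spot signal), the authors' table, probe summary, filters and thresholds. Tools were Python 3.11.15, numpy 2.4.6, pandas 2.3.3, R 4.3.3 and limma 3.58.1.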

Additional observations from a re-analysis of the deposited data

How the results depend on the processing

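Over 10 alternatives, 1 of them (the 75th percentile over probe averages) added after the data were seen, 23 of the 40 genes stayed above 0 and 7 below 0, and 10 changed sign. Of the single-gene values, 388 moved by less than the spot range and 6 by more. No paired analysis was possible because each genotype has 1 array. Genes 2-fold higher (2) were 1 under normexp, the stricter filter or a 3-fold threshold, and genes 2-fold lower (0) were 1 with no filter, namely Cds1, which is not above background. Genes 1.2-fold higher (7) were 13 under median scaling, 4 in the authors' table and under the stricter filter, and 3 at a 1.3-fold threshold. Shares of all genes 1.2-fold higher were 19.7% under median scaling, 7.94% in the authors' table and 7.67% under the stricter filter. Genes 1.2-fold lower (0) were 2 in the authors' table, against 13.7% of all genes, and 4 of 45 with no filter, against 26.9%. Genes past the spot range higher (17) were 27 under median scaling and 9 in the authors' table, and those lower (4) were 1 under median scaling and 7 in the authors' table and under quantile normalization. Of all genes, 15.6% were past the range lower under quantile normalization. In the wider list, the 6 higher became 15 under median scaling and 10 with no filter, and the 8 lower became 2 under median scaling, 3 under normexp and 18 with no filter. With no filter 15.4% of all genes were 1.2-fold higher and 26.9% lower. Lower were 6.08% of all genes under median scaling and 4.59% under normexp. The Lands cycle median was -0.039 with no filter, and the sphingosine 1-phosphate median was 0.090 with the stricter filter, which tests fewer genes. By construction, median scaling adds 0.090 to every log2 ratio, and the authors' table differs by 1 constant per array (a shift of -0.060). The cause of the shifts under normexp and quantile normalization was not tested. Having 1 array per genotype limits all values, and low signal over background those of the 6 dimmest genes and of the genes not measured.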
